A study of Mus musculus with 22 samples.

Results

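Livers of germ-free and conventional mice were compared in pregnancy, over the 15928 of 53392 genes in the count table that passed a filter on low counts. All libraries of pregnant animals were used, which made 10 of the 22 in the series. The mice were female C57BL/6 animals on the same autoclaved chow, water and bedding. The conventional pregnant group (5 libraries, CP1 to CP5) carried a normal microbiota, and the germ-free pregnant group (5 libraries, GP1 to GP5) was raised without microbes. The labels give C57BL/6 for both groups without a substrain, and name no allele or drug. The labels place every pregnant liver at gestation day 15, but the date is less certain in germ-free mice. Conventional females were paired for 1 night at 8 weeks of age, whereas germ-free females were paired for 72 h at 11 to 15 weeks and their gestation day was assumed. Age labels, in a unit that is not stated, ran from 70 to 77 in the conventional and from 91 to 121 in the germ-free pregnant group, so age and microbial status cannot be told apart. Non-pregnant females of both kinds, 6 libraries each, are given beside the results. Nothing in the labels says whether the animals of a group shared a cage or litter, and p-values measure the spread between these libraries.

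The liver receives blood from the gut first, and microbial products and microbially modified bile acids reach it by that route. Nuclear receptors of hepatocytes read such signals and set the level of cytochrome P450 enzymes, which oxidise drugs, steroids and fatty acids, and of the transferases that conjugate the products. Pregnancy also resets the same genes through placental lactogens, prolactin, growth hormone and sex steroids, while the liver turns toward supplying glucose and lipid to the fetus.

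The deposited values were estimated counts, given below as CPM, the usual count scaled to library size. Library totals were 18064491 to 29126577 in the conventional and 20198292 to 24874256 in the germ-free pregnant group. Mitochondrially encoded transcripts took 5.90% to 15.7% and 8.36% to 24.3% of counts. All 11 tested hepatocyte markers were detected, with albumin (Alb) at a mean of 123800.0 and 116450.0 CPM. The library CP2 stood apart from its group: its median absolute log2 distance from the group was 0.440, against 0.288 to 0.315 in the other 4 conventional pregnant libraries. It held high levels of acute phase, interferon and cell cycle transcripts that are given further on, so the differences of the 21 called genes and the medians of the gene lists are also given without it. These are whole-liver samples, so fewer cells of a type and less RNA per cell cannot be told apart.

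Of 15928 genes tested with edgeR's quasi-likelihood test, 21 differed between germ-free and conventional pregnant livers at a Benjamini-Hochberg adjusted p under 0.05 (0.132%). There were 13 higher in germ-free (0.0816%) and 8 lower (0.0502%). Before adjustment, 1672 genes had a p under 0.05. Enzymes of foreign compound metabolism made up much of the short list. Cytochromes of the Cyp2b and Cyp2c families and the transferase Ugt1a9 were higher in germ-free livers, and Cyp3a11, the esterase Ces2a and the sulfotransferase Sult5a1 were lower. The other lower genes were Scd1, Apoa4 and Pnpla5 of lipid handling, Csad of taurine synthesis and the orphan sulfotransferase Sult4a1. In 16 of the 21 the values of the 5 germ-free and 5 conventional libraries did not overlap. The exceptions were Ces2a, Pnpla5, Pck1, Sult4a1 and Olig1. Over all genes tested, the libraries did not overlap for 79 higher (0.496%) and 96 lower genes (0.603%). The log2 difference was above 0 for 7282 genes and below 0 for 8646, or for 7523 and 8405 without CP2. Without CP2, 19 genes passed, 8 higher (0.0495% of 16155 tested) and 11 lower (0.0681%), and 14 of these were among the 21. In a fit of the 10 pregnant libraries alone, 5 genes passed, 4 of them among the 21. The plot of the called genes shows every library.

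**Figure D1:**
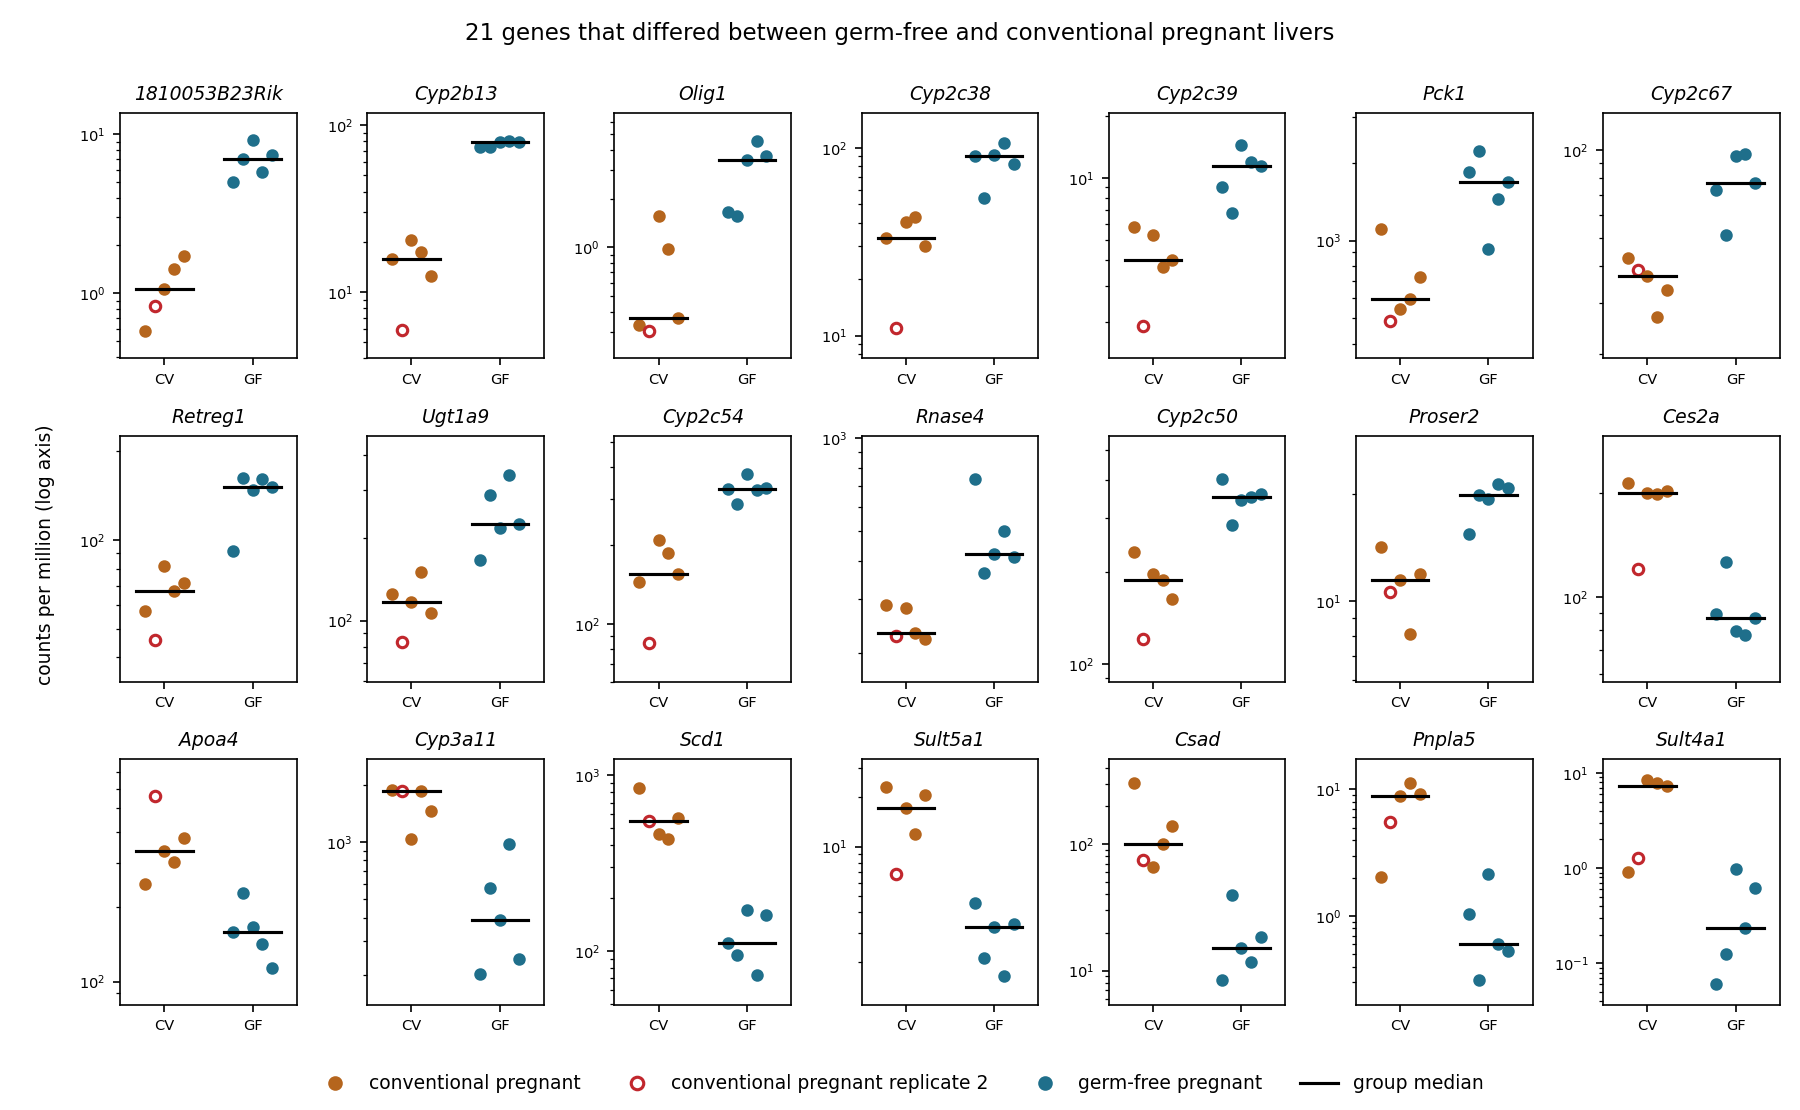
CPM (log axis) of the 21 genes with an adjusted p under 0.05, in 5 conventional (CV) and 5 germ-free (GF) pregnant livers. Each point is a library, the bar is the group median, and the open red circle is CP2; in 16 panels no germ-free point lies within the conventional range.

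Cyp2b13, a female-predominant cytochrome of the Cyp2b cluster (chr7:26061497-26096197, GRCm38), differed with the lowest p of all genes. It measured 15.7, 5.91, 20.4, 17.4 and 12.5 CPM in CP1 to CP5 and 74.3, 73.8, 79.0, 80.2 and 79.4 CPM in GP1 to GP5. All germ-free libraries lay within a few CPM of each other and above every conventional one. The difference was 5.38-fold (log2 difference 2.43, SE 0.28, adjusted p = 0.000188), and it was 2.23 without CP2 (adjusted p = 0.000147). The call stood in all 10 fits that left out 1 pregnant library. In non-pregnant livers Cyp2b13 was at 179 ± 33.8 CPM (SD, n = 6) in conventional and 214 ± 74.9 CPM (SD, n = 6) in germ-free mice, above both pregnant groups. Its neighbours of the same cluster were not called: Cyp2b10, the usual target of the receptor CAR, was at 4.81 to 56.0 CPM in conventional and 5.99 to 43.1 CPM in germ-free pregnant livers (log2 -0.56, 95% interval -1.65 to 0.53), and the mean of Cyp2b9 was 155 and 206 CPM (log2 0.41, 95% interval -0.14 to 0.96). Without CP2 the log2 difference of Cyp2b10 was -0.83 (adjusted p = 0.718). Of the 31-base words in Cyp2b13 transcripts, 40.8% also occur in transcripts of other genes, so part of the Cyp2b13 count rests on how reads were divided.

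Cyp2c enzymes, which oxidise arachidonic acid, steroids and many drugs, form a gene cluster on chromosome 19, and 5 of them were higher in germ-free pregnant livers. Cyp2c38 (chr19:39389556-39463075) measured 33.0, 11.0, 40.3, 42.6 and 30.1 CPM in CP1 to CP5 and 90.0, 53.9, 91.9, 106 and 81.6 CPM in GP1 to GP5. The lowest germ-free library, GP2, lay above the highest conventional one (log2 difference 1.43, SE 0.26, adjusted p = 0.0228), and the difference without CP2 was 1.21 (adjusted p = 0.0149). The call was lost without CP5, GP3, GP4 or GP5 (adjusted p up to 0.0863). Cyp2c39 (chr19:39510862-39568529), its closest relative here and a gene of lower level, measured 5.76, 1.93, 5.28, 3.73 and 4.02 CPM and 9.05, 6.73, 14.4, 11.9 and 11.4 CPM. It passed narrowly (log2 difference 1.37, SE 0.28, adjusted p = 0.0499, log2 difference 1.19 without CP2) and was lost without CP2, CP4, CP5, GP1, GP3, GP4 or GP5 (adjusted p up to 0.162). Cyp2c67 (chr19:39608842-39649051) was at 26.8 to 42.6 CPM in the conventional and 51.3 to 97.0 CPM in the germ-free group (log2 difference 1.15, SE 0.22, adjusted p = 0.0265, log2 difference 1.18 without CP2), a call lost without CP4, CP5, GP3, GP4 or GP5 (adjusted p up to 0.0884).

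The remaining pair are more abundant. Cyp2c50 (chr19:40089688-40113950) measured 231, 121, 197, 188 and 163 CPM in CP1 to CP5 and 403, 285, 344, 350.4 and 359 CPM in GP1 to GP5. Its difference was smaller (log2 difference 0.95, SE 0.17, adjusted p = 0.0222, log2 difference 0.84 without CP2) and was lost without CP4, CP5, GP1, GP3, GP4 or GP5 (adjusted p up to 0.0765). Cyp2c54 (chr19:40037940-40073827) was at 84.0 to 210.0 CPM and 287 to 375 CPM (log2 difference 1.08, SE 0.22, adjusted p = 0.0443, log2 difference 0.92 without CP2), and its call was lost without CP1, CP2, CP4, CP5, GP1, GP2, GP3, GP4 or GP5 (adjusted p up to 0.125). In all 5 genes CP2 or CP4 was the lowest conventional library. CP2 was lowest for Cyp2c38, Cyp2c39, Cyp2c50 and Cyp2c54, where the difference shrank on leaving it out but kept its direction. These transcripts share sequence: 67.6% of the 31-base words of Cyp2c67 occur elsewhere, most of them in Cyp2c40, as do 42.3% of those of Cyp2c54, 29.2% of Cyp2c50, 26.9% of Cyp2c39 and 16.6% of Cyp2c38. Cyp2c40 (log2 0.22, adjusted p = 0.784) and Cyp2c37 (log2 0.82, adjusted p = 0.314), which share words with Cyp2c67 and Cyp2c50, were not called. The division of reads between members is therefore uncertain.

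Cyp3a11, the main inducible Cyp3a enzyme of mouse liver and a classical target of the pregnane X receptor, was lower in germ-free livers (chr5:145854426-145879964). It measured 1882, 1857, 1033, 1844 and 1452 CPM in CP1 to CP5 and 202, 571, 389, 972 and 242 CPM in GP1 to GP5. The groups did not overlap, although GP4 came close to CP3. The conventional mean was 3.4-fold the germ-free one (log2 difference -1.76, SE 0.32, adjusted p = 0.0222), the difference without CP2 was -1.71 (adjusted p = 0.0447), and the call was lost without CP4, CP5, GP3 or GP5 (adjusted p up to 0.074). No other Cyp3a gene was called in the main fit. DESeq2, an alternative test, also called Cyp3a59 lower (log2 -0.85, adjusted p = 0.0485). Cyp3a41b, Cyp3a16 and Cyp3a44, which are female or pregnancy-associated forms, were not called. The mean of Cyp3a41b was 500.5 and 604 CPM (log2 0.27, 95% interval -1.38 to 1.92), that of Cyp3a16 291 and 386 CPM (log2 0.41, adjusted p = 0.888) and that of Cyp3a44 682 and 1089 CPM (log2 0.67, 95% interval -0.42 to 1.77). Their intervals are wide, and differences between genes were not tested.

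Over the whole list of P450 families 1 to 3, 47 genes were tested, 6 were called higher and 1 lower, and 33 were above 0. Of all 15928 genes, 13 were called higher, 8 lower, and 7282 were above 0. The list's median difference was 0.36, against -0.03 over all genes tested, and 0.26 without CP2, where 4 were called higher and 1 lower. Summed over the list, the enzymes took 13153 to 24071 CPM in conventional and 20512 to 26457 CPM in germ-free livers, and CP2 was the lowest. Cyp2d26, an abundant member, did not overlap between groups (422 to 957 and 978 to 1292 CPM) but missed the threshold (log2 0.70, adjusted p = 0.133). Cyp1a2, a target of the aryl hydrocarbon receptor, was at 317 to 606 and 470.0 to 789 CPM (log2 0.36, 95% interval -0.12 to 0.85). Cyp4a14, a fatty acid hydroxylase induced through PPAR-alpha, was at 145 to 556 and 107 to 283 CPM (log2 -0.22, 95% interval -0.86 to 0.42). Both pairs of ranges overlapped. Without CP2 the log2 differences were 0.25 for Cyp1a2 and -0.37 for Cyp4a14, and neither was called.

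Promoters of 4 of the called cytochromes are shown because members on the same cluster were higher together while Cyp3a11 was lower. They run from 250 bases before to 50 bases after the RefSeq start (GRCm38.p6), each on its gene's own strand: Cyp2c38 at chr19:39463026-39463325 (minus), Cyp2c39 at chr19:39510572-39510871 (plus), Cyp2c67 at chr19:39648993-39649292 (minus) and Cyp3a11 at chr5:145879805-145880104 (minus). Capitals mark exact matches, on either strand, to CAAAGTCCA (HNF4, a hepatocyte nuclear receptor), TGTTTAC (FOXA, forkhead factors) and TATAAA (letters of a TATA box).
Cyp2c38: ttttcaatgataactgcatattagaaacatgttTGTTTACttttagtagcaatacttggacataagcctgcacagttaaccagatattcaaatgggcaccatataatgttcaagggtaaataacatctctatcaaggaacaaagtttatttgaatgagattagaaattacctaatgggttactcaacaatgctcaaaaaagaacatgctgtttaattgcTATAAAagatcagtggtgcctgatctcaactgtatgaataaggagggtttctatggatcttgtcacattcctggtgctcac
Cyp2c39: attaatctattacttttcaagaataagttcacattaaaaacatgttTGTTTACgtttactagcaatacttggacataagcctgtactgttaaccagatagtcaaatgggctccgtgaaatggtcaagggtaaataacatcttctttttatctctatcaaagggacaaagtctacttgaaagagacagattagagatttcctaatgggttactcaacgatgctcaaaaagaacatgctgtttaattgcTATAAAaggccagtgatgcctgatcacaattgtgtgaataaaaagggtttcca
Cyp2c67: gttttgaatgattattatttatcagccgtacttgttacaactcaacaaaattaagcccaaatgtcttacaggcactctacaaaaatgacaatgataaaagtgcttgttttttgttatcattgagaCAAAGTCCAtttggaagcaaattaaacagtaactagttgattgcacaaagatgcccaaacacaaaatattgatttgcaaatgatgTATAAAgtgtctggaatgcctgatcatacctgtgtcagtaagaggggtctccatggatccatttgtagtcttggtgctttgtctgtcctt
Cyp3a11: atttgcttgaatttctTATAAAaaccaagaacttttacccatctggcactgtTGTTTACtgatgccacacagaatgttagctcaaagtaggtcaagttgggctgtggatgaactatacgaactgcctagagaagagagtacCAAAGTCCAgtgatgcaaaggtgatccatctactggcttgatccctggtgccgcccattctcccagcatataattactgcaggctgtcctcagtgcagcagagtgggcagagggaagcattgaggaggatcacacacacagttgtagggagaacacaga
The promoters of Cyp2c38 and Cyp2c39 were identical at 73.0% of aligned columns and both held the FOXA and TATA letters, while Cyp2c67 held the HNF4 and TATA letters. Cyp3a11, which differed in the opposite direction, held all 3. Its TATAAA began at base 17 of the 300, far from the start, against base 220 in Cyp2c38, 248 in Cyp2c39 and 211 in Cyp2c67. The start follows base 250, so the TATAAA of Cyp2c39 lies at the start used, 1 of 2 listed for that gene. RefSeq and GENCODE starts lay 110 bases apart in Cyp3a11, 40 in Cyp2c39, 9 in Cyp2c67 and 0 in Cyp2c38. Among 32851 promoters of this length, CAAAGTCCA occurred in 0.475%, TGTTTAC in 3.65% and TATAAA in 13.6%. Of the 21 called genes 17 had a promoter in the table, and these letters occurred in 2, 3 and 5 of them. The 4 cytochromes shown were the only called ones found with any of these letters. Cyp2c50, a higher member of the same cluster, also had a promoter, which held none of the 3 and is not shown. CCAAT, the CCAAT box, occurred in 37.4% of promoters and 7 of the 17, and TTCNNNGAA, the STAT5 motif, in 8.30% and 2 of the 17. A match is a description of these letters, not a measured site.

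Among conjugating enzymes, Ugt1a9, which glucuronidates phenols and fatty acids, was higher and a pair of sulfotransferases was lower in germ-free pregnant livers. Ugt1a9 (chr1:88070800-88218997) measured 125, 83.5, 117, 149.6 and 107 CPM in CP1 to CP5 and 167, 288, 218, 338 and 224 CPM in GP1 to GP5. The groups did not overlap (log2 difference 1.09, SE 0.22, adjusted p = 0.0411, log2 difference 0.99 without CP2), but the call was lost without CP1, CP2, CP3, CP4, CP5, GP2, GP3, GP4 or GP5 (adjusted p up to 0.103). Ugt1a genes share their last exons, and 67.8% of the 31-base words of Ugt1a9 occur in other genes, so its estimate depends on the first exon. Ugt1a1, the bilirubin-conjugating member, did not overlap either (254 to 751 and 811 to 978 CPM) and was not called (log2 0.58, adjusted p = 0.372). Of 21 UDP-glucuronosyltransferase list members tested, 1 was called higher and none lower, and the median was 0.12, or -0.03 without CP2.

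Sult5a1, a liver sulfotransferase (chr8:123140192-123158315), measured 22.9, 6.83, 17.1, 12.0 and 20.5 CPM in CP1 to CP5 and 4.53, 2.12, 3.25, 1.63 and 3.4 CPM in GP1 to GP5. Every germ-free library was below every conventional one (log2 difference -2.41, SE 0.44, adjusted p = 0.0222, log2 difference -2.60 without CP2), and the call was lost without CP5, GP2, GP3, GP4 or GP5 (adjusted p up to 0.0878). Sult4a1, an orphan sulfotransferase best known from brain (chr15:84076097-84105754), measured 0.912, 1.27, 8.45, 7.8 and 7.37 CPM and 0.0612, 0.125, 0.976, 0.233 and 0.623 CPM. It was high only in CP3, CP4 and CP5, while CP1 and CP2, the conventional pair with the age label 70, lay inside and just above the germ-free range (log2 difference -3.62, SE 0.70, adjusted p = 0.0315, log2 difference -3.86 without CP2). Its call was lost without CP3, CP4, CP5, GP1, GP2, GP4 or GP5 (adjusted p up to 0.0979). In non-pregnant livers it was close to 0, with means of 0.0116 and 0.087 CPM. Sulfotransferases as a list had 17 tested members, of which none was called higher and 2 lower, with a median of -0.21, or -0.39 without CP2. Ces2a, an intestinal and hepatic carboxylesterase that hydrolyses drugs and triglycerides (chr8:104734003-104741634), measured 214, 120.3, 200.1, 198 and 202 CPM in CP1 to CP5 and 89.0, 126, 79.8, 77.8 and 87.0 CPM in GP1 to GP5. Only CP2 reached into the germ-free range (log2 difference -1.02, SE 0.18, adjusted p = 0.0222), and without it the difference was -1.15 (adjusted p = 0.00211). The call was lost without CP4, CP5, GP3, GP4 or GP5 (adjusted p up to 0.0765). It was the only call among 47 phase I enzymes outside the P450 families, whose median was 0.08, or -0.0010 without CP2.

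Scd1, the desaturase that makes oleate and palmitoleate from saturated fatty acids (chr19:44394455-44407879), was lower in germ-free pregnant livers with the second lowest p. It measured 844, 552, 465, 436 and 571 CPM in CP1 to CP5 and 112, 95.02, 171, 73.0 and 159.8 CPM in GP1 to GP5. The lowest conventional library was above the highest germ-free one by more than the range of the germ-free group. The conventional mean was 4.7-fold the germ-free one (log2 difference -2.23, SE 0.28, adjusted p = 0.000324), the difference without CP2 was -2.25 (adjusted p = 0.000537), and the call stood in all 10 fits that left out 1 library. Non-pregnant livers of both kinds held more, 1684 ± 523 CPM (SD, n = 6) in conventional and 1498 ± 447 CPM (SD, n = 6) in germ-free mice. Pnpla5, a lipase of lipid droplets (chr15:84112356-84123175), measured 2.03, 5.56, 8.84, 11.2 and 9.15 CPM and 1.04, 0.311, 2.14, 0.607 and 0.527 CPM. CP1 lay inside the germ-free range, which reached 2.14 CPM in GP3 (log2 difference -2.97, SE 0.54, adjusted p = 0.0222, log2 difference -3.06 without CP2), and the call was lost without CP4, CP5, GP4 or GP5 (adjusted p up to 0.0863).

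The rest of fatty acid and triglyceride synthesis did not pass. Of 26 list members tested, none was called higher and Scd1 alone lower, 19 were below 0 and the median was -0.33, or -0.39 without CP2. Fatty acid synthase (Fasn, mean 251 and 201 CPM, log2 -0.32, adjusted p = 0.831) and the regulator Srebf1 (mean 141 and 108 CPM, log2 -0.38, adjusted p = 0.596) were among these. Pnpla3, a lipid droplet protein that is usually raised with lipogenesis, did not overlap (5.93 to 24.7 and 0.934 to 4.14 CPM) but missed the threshold (log2 -2.69, adjusted p = 0.157). Cholesterol synthesis and uptake had 25 tested members and no call, with 20 below 0 and a median of -0.26, or -0.35 without CP2. In non-pregnant mice the median of that list was -0.94. Apoa4, an apolipoprotein of intestinal and hepatic lipid export (chr9:46240696-46243459), measured 248, 562, 336, 303 and 380.4 CPM in CP1 to CP5 and 158, 228, 166, 142 and 114 CPM in GP1 to GP5. The groups did not overlap (log2 difference -1.18, SE 0.22, adjusted p = 0.0265, log2 difference -0.97 without CP2), and the call was lost without CP2, CP4, CP5, GP1, GP3, GP4 or GP5 (adjusted p up to 0.097). CP2 was the highest library for Apoa4. Cd36, a fatty acid transporter, was higher without overlap (50.04, 61.9, 98.9, 109.8 and 79.4 CPM against 122, 133, 149, 139 and 183 CPM) and missed the threshold (log2 0.86, adjusted p = 0.133), whereas it was called in non-pregnant livers (log2 1.38, adjusted p = 0.00162). The difference between these effects was not called (adjusted p = 0.882). DESeq2, an alternative test, called Cd36 higher in pregnancy as well (log2 0.87, adjusted p = 0.0177).

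Csad makes the precursor of taurine, the amino acid that mice join to bile acids (chr15:102176999-102204724). It was lower in germ-free livers, with 303, 74.9, 65.7, 100.4 and 139 CPM in CP1 to CP5 and 8.38, 40.0, 15.1, 11.7 and 18.4 CPM in GP1 to GP5. The conventional group itself was spread widely, with CP1 high, but no germ-free library reached the lowest conventional value (log2 difference -2.87, SE 0.40, adjusted p = 0.000874, log2 difference -3.03 without CP2). The call stood in all 10 fits that left out 1 library and was lost when the pregnant libraries were fitted alone. Other steps of the pathway were not called. Cysteine dioxygenase (Cdo1) was at means of 1393 and 1773 CPM (log2 0.35, adjusted p = 0.457), Baat, which joins taurine to bile acids, at 128 and 133 CPM (log2 0.05, 95% interval -0.27 to 0.37), and the taurine transporter Slc6a6 at 51.5 and 47.6 CPM (log2 -0.11, 95% interval -0.56 to 0.33). Of 22 genes of methionine, cysteine and taurine metabolism, none was called higher and Csad alone lower, with a median of 0.19, or 0.08 without CP2. Exons of Csad overlap those of Zfp740 on the opposite strand, and exons of Apoa4, Olig1 and Ugt1a9 likewise overlap annotated antisense genes. The labels name a kit and no strand setting, so reads of such partners cannot be told apart.

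Pck1, the controlling enzyme of gluconeogenesis (chr2:173153048-173159273), was higher in germ-free pregnant livers, at 1841, 2228, 929, 1449 and 1688 CPM against 1113, 491, 542, 597 and 721 CPM. GP3 lay below CP1, so the groups overlapped (log2 difference 1.23, SE 0.24, adjusted p = 0.0315, log2 difference 1.13 without CP2), and the call was lost without CP2, CP3, CP4, CP5, GP1, GP2, GP4 or GP5 (adjusted p up to 0.0949). G6pc, the last enzyme of the same route, had means of 69.8 and 124 CPM and was not called (log2 0.83, adjusted p = 0.595). Of 21 genes of glucose and glycogen metabolism, 1 was called higher and none lower, with a median of 0.05, or 0.14 and no call without CP2. Among 29 genes of the urea cycle and amino acid breakdown none was called, although 26 were above 0, with a median of 0.31, or 0.15 without CP2. Of all 15928 genes, 7282 were above 0. Oat, a pericentral aminotransferase of ornithine, did not overlap (82.3 to 438 and 476 to 960.0 CPM) and missed the threshold (log2 1.27, adjusted p = 0.128). CP2 was its lowest library.

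Of the remaining 5 higher genes, 1 is noncoding. The transcript 1810053B23Rik (chr16:93342504-93366668) measured 0.58, 0.832, 1.06, 1.43 and 1.72 CPM in CP1 to CP5 and 5.02, 7.04, 9.16, 5.79 and 7.38 CPM in GP1 to GP5. It was low in all conventional libraries and several times higher in all germ-free ones (log2 difference 2.61, SE 0.35, adjusted p = 0.0006, log2 difference 2.52 without CP2), and the call stood in all 10 fits that left out 1 library and in all 9 other alternatives. Retreg1, a receptor for turnover of the endoplasmic reticulum (chr15:25843180-25973687), was at 57.7, 45.9, 81.6, 66.9 and 71.6 CPM and 92.1, 163, 148, 160.4 and 151 CPM, with GP1 the lowest of its group (log2 difference 1.14, SE 0.19, adjusted p = 0.0172, log2 difference 1.04 without CP2). The call was lost without GP4 (adjusted p = 0.0598). Rnase4, a secreted ribonuclease (chr14:51091077-51106151), was at 287, 227, 280.0, 233 and 223 CPM and 739, 364, 422, 498 and 412 CPM, with GP1 the highest (log2 difference 0.96, SE 0.17, adjusted p = 0.0222, log2 difference 0.93 without CP2). That call was lost without CP4, CP5 or GP4 (adjusted p up to 0.0762). Rnase4 overlaps Ang, another secreted ribonuclease, and shares 10.0% of its 31-base words with it. Ang itself was at 45.3 to 110.2 and 92.5 to 241 CPM (log2 0.94, adjusted p = 0.202). Proser2 (chr2:6097607-6130211) was at 8.12 to 14.2 and 15.5 to 21.4 CPM (log2 difference 0.79, SE 0.15, adjusted p = 0.0293, log2 difference 0.77 without CP2), a call lost without CP2, CP4, CP5, GP2, GP3, GP4 or GP5 (adjusted p up to 0.0878). Olig1, a transcription factor of the oligodendrocyte lineage (chr16:91269772-91271933), was barely expressed, at 0.306 to 1.56 and 1.56 to 4.57 CPM (log2 difference 2.09, SE 0.43, adjusted p = 0.0459, log2 difference 1.90 without CP2), and its call was lost without CP1, CP2, CP4, CP5, GP3, GP4 or GP5 (adjusted p up to 0.128).

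Bile acid genes and their sensors did not pass the test in pregnancy. Of 16 genes of bile acid synthesis and conjugation none was called. With CP2, 8 were above and 8 below 0, with a median of 0.02, and without it 5 were above and 11 below, with a median of -0.05. Cyp7a1, which catalyses the first and controlling step from cholesterol to bile acids, measured 170.0, 17.8, 183, 189 and 191 CPM in CP1 to CP5 and 129.9, 136, 248, 137 and 127 CPM in GP1 to GP5. CP2 was far below the others, and without it the difference went from 0.05 to -0.23 (adjusted p = 0.94). Cyp8b1, which sets the share of cholic acid, measured 200.5, 11.4, 234, 100.0 and 123 CPM and 37.2, 87.5, 32.8, 47.5 and 72.2 CPM (log2 -1.27, 95% interval -2.60 to 0.06, adjusted p = 0.499). Without CP2, all germ-free libraries were below all conventional ones for Cyp8b1, as they were for 1.12% of all genes, yet the test was not passed (log2 -1.57, adjusted p = 0.53). The 95% intervals of the remaining genes were -0.80 to 0.66 for the repressor SHP (Nr0b2), -0.33 to 0.50 for the pregnane X receptor (Nr1i2), -0.75 to 0.92 for CAR (Nr1i3), -0.59 to 0.51 for the bile acid importer Slc10a1 and -0.45 to 0.62 for the bile salt export pump Abcb11. Differences inside those intervals are not excluded. Without CP2 the log2 differences of these 5 genes ran from -0.23 for Slc10a1 to 0.03 for Nr0b2, and none was called.

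Hormone receptors and the genes they govern gave few calls. The growth hormone receptor Ghr measured 860.1, 542, 2783, 2365 and 2291 CPM in CP1 to CP5 and 2044, 3087, 2801, 2149 and 2606 CPM in GP1 to GP5. The prolactin receptor Prlr measured 928, 646, 2072, 1794 and 1870.3 CPM and 1552, 2259, 2218, 1657 and 2005 CPM. CP1 and CP2, both with the age label 70, were low for both receptors, and in all other pregnant libraries Ghr was at 2044 CPM or more and Prlr at 1552 CPM or more (log2 0.52 and 0.41, adjusted p = 0.543 and 0.597). Without CP2 the log2 differences were 0.29 for Ghr and 0.22 for Prlr (adjusted p = 0.82 and 0.876). Non-pregnant means were 335 and 328 CPM for Ghr and 227 and 239 CPM for Prlr. Of 24 female-biased liver genes tested, 2 were called higher, Cyp2b13 and Cyp2c39, and none lower, with a median of 0.26, and 0.14 without CP2. Among 19 male-biased genes none was called, with a median of -0.52, or -0.03 without CP2. Mup15, a major urinary protein gene, was at 355, 5.12, 322, 78.7 and 216 CPM and 40.7, 1.81, 17.9, 2.71 and 17.2 CPM (log2 -3.61, adjusted p = 0.183). CP2 alone of the conventional libraries lay within the germ-free range, and without it the log2 difference was -3.92 (adjusted p = 0.093). Mup genes are near-identical copies, so the division of their reads is uncertain. Mup15 was called in non-pregnant livers, at means of 1202 and 9.79 CPM (log2 -6.94, adjusted p = 0.00185). Igfbp1, a binding protein raised by fasting and stress, was at 127 to 213 CPM in germ-free livers. It measured 53.4, 256, 34.4, 23.5 and 10.1 CPM in CP1 to CP5, with CP2 highest, and was not called with CP2 (log2 1.19, adjusted p = 0.546) or without it (log2 2.50, adjusted p = 0.146).

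Acute phase transcripts turned on a single conventional library, and immune transcripts did so in part. Saa1, an acute phase protein, measured 16.7, 2049, 26.1, 16.4 and 17.4 CPM in CP1 to CP5 and 56.8, 32.3, 28.7, 37.1 and 27.8 CPM in GP1 to GP5. Lcn2, an iron-binding acute phase protein, measured 8.79, 885, 13.0, 4.14 and 6.32 CPM and 59.5, 20.6, 23.8, 36.4 and 41.1 CPM. CP2 was far above all other libraries in both, and the other 4 conventional libraries were below every germ-free one. The difference therefore went from -3.54 with CP2 to 0.93 without it for Saa1 (adjusted p = 0.242 and 0.55), and from -2.34 to 2.18 for Lcn2 (adjusted p = 0.428 and 0.0959). Saa2 went from -4.51 to 0.45 (adjusted p = 0.169 and 0.875). Orm2, a plasma acute phase glycoprotein, measured 36.9, 506, 34.3, 21.7 and 21.6 CPM and 218, 56.0, 106, 105 and 123 CPM. It was not called with CP2 (log2 -0.03, adjusted p = 0.994) and was called higher without it (log2 2.09, adjusted p = 0.0498). Hp, haptoglobin, was at 1519, 9738, 2294, 2030.3 and 3064 CPM and 4808, 3722, 4058, 3609.8 and 3548 CPM (log2 0.08 with and 0.83 without CP2, adjusted p = 0.963 and 0.0939). Over 33 tested acute phase genes, 18 were above 0 and the median was 0.19 with CP2. Without CP2, 28 were above 0, the median was 0.41, 1 was called higher and 6 were higher without overlap: Saa1, Lcn2, Orm2, Hp, Lrg1 and Mt1. Over all genes in that comparison, 0.929% were higher and 1.12% lower without overlap, and 7523 of 15928 were above 0. CP2 was left out partly for its high values in genes of this list. The Orm2 call and the counts without CP2 are therefore a description and not a test. The shares over all genes do not allow for that choice.

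**Figure D2:**
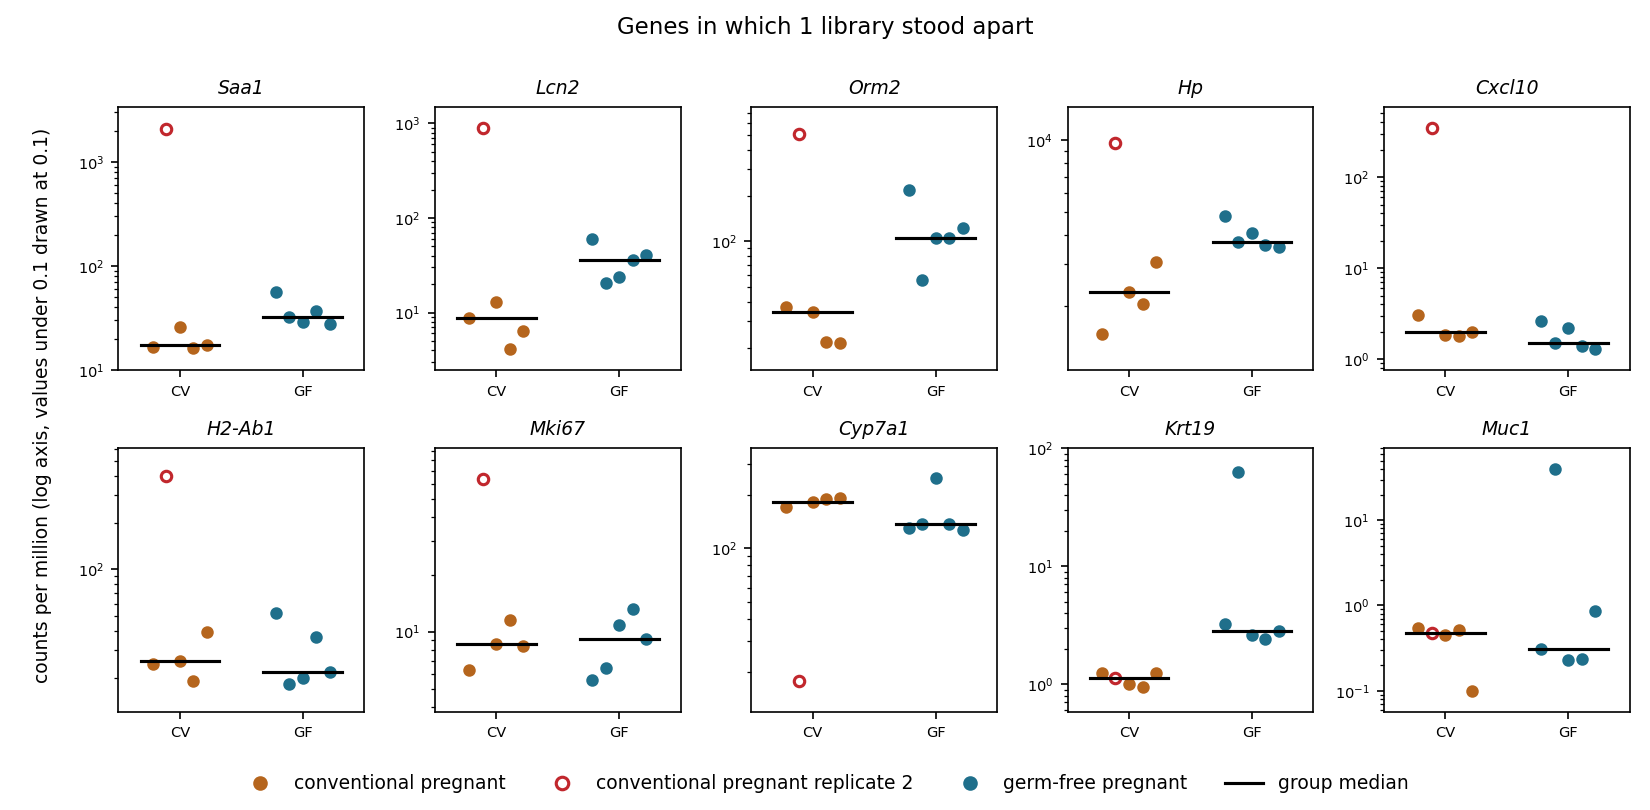
CPM (log axis, values under 0.1 drawn at 0.1) of 10 genes in conventional (CV) and germ-free (GF) pregnant livers, with the group median as a bar. CP2 (open red circle) is highest for the acute phase genes Saa1, Lcn2, Orm2 and Hp, for Cxcl10, H2-Ab1 and Mki67, and lowest for Cyp7a1; GP2 is highest for Krt19 and Muc1.

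Interferon-stimulated genes moved toward 0 without CP2, but most stayed below it. All 44 tested were below 0 with CP2, with a median of -0.95 and no call, and without CP2 39 were below 0, with a median of -0.33 and no call. Of all 15928 genes, 8405 were below 0 without CP2, with a median of -0.02. Cxcl10, an interferon-induced chemokine, was at 3.07, 345, 1.83, 1.81 and 1.99 CPM and 2.63, 1.49, 2.18, 1.4 and 1.29 CPM. Major histocompatibility class II genes (9 tested) had a median of -1.68 with CP2 and 0.12 without it, and their sum was 1764 CPM in CP2, at most 171 CPM in the other conventional libraries and 86.8 to 257 CPM in germ-free ones. Their member H2-Ab1 was at 400.4 CPM in CP2. Cell cycle genes (40 tested) had a median of -0.93 with CP2 and 0.07 without it, and the proliferation marker Mki67 measured 6.3, 63.4, 8.62, 11.6 and 8.42 CPM and 5.57, 6.41, 10.8, 13.1 and 9.15 CPM. None of these lists held a called gene with or without CP2. In the cell cycle list 2 genes, Cenpa and Aurka, were lower without overlap both with and without CP2. Over all genes tested, 0.603% and 1.12% were lower without overlap. The lowest conventional and highest germ-free values lay close, at 5.39 and 5.14 CPM for Cenpa and 2.61 and 2.57 CPM for Aurka. The plot of list medians shows that lists of immune cells and proliferation moved most when CP2 was left out, and that P450 and lipid lists moved little.

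**Figure D3:**
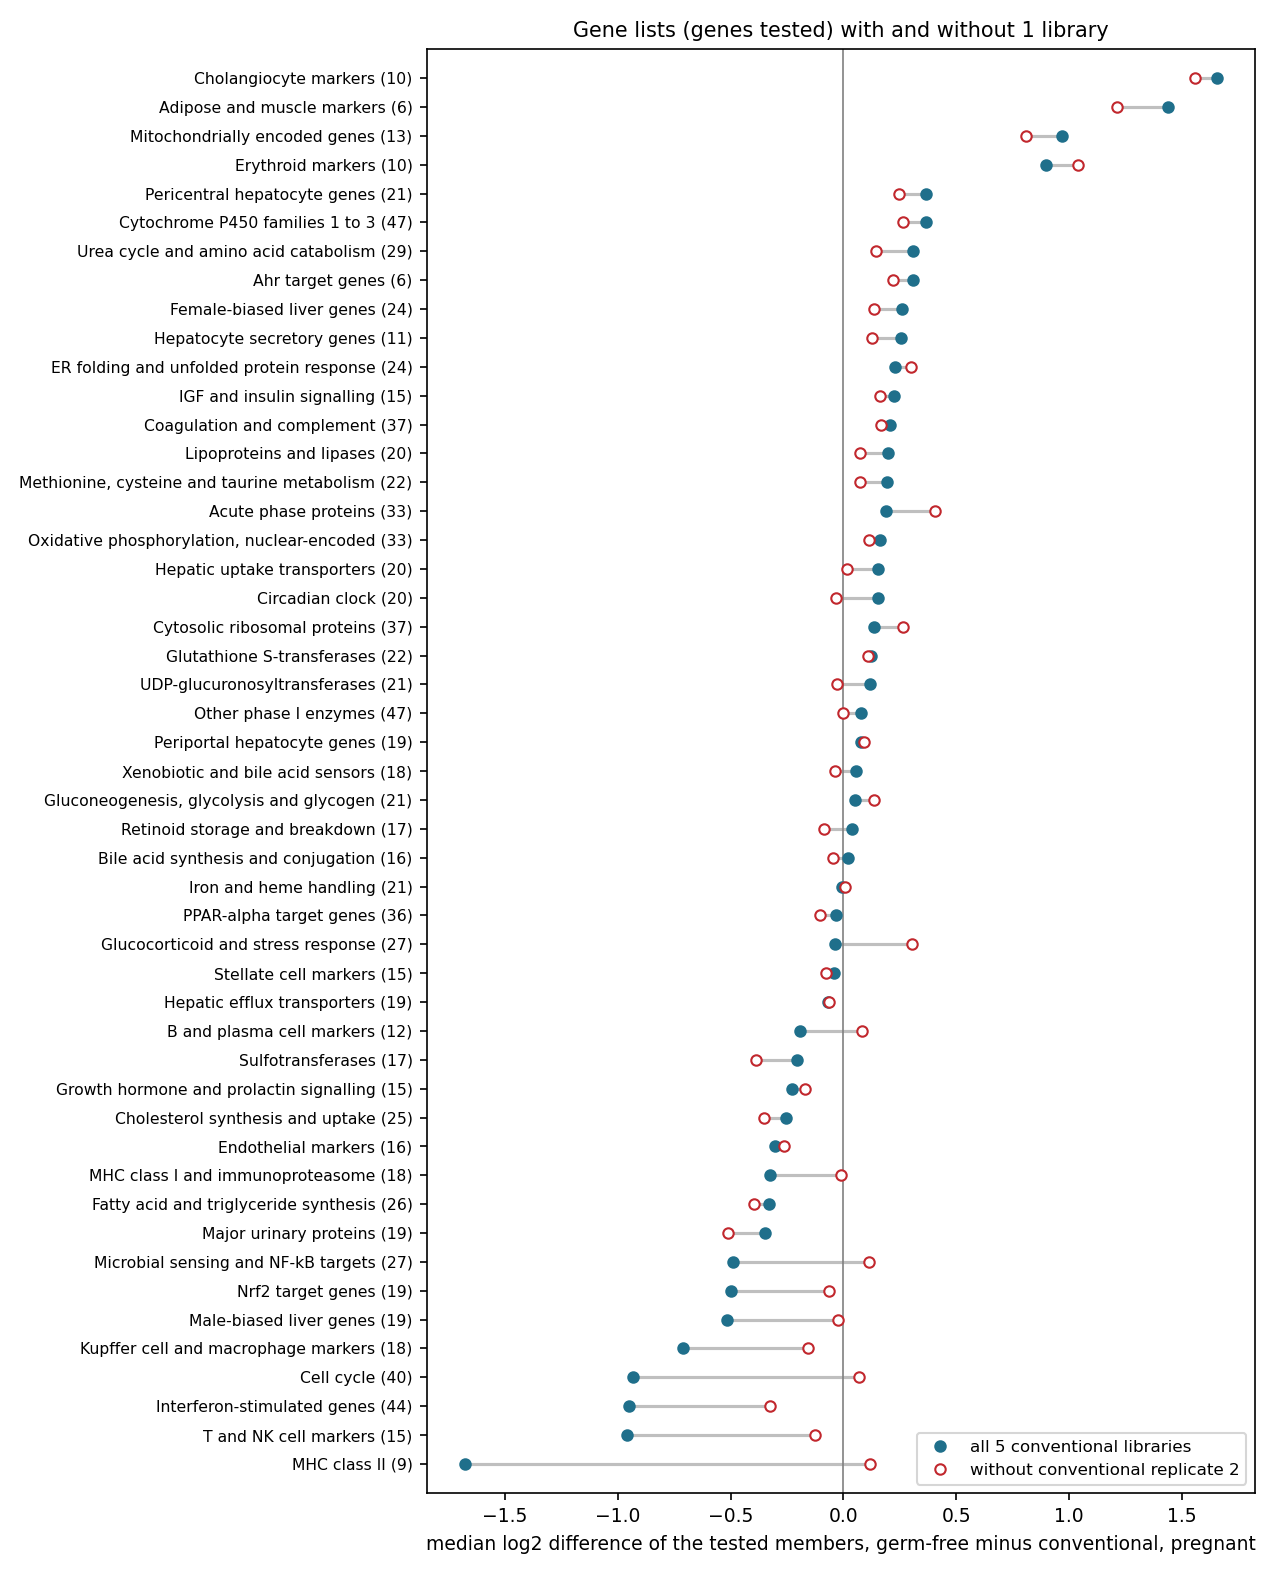
Median log2 difference, germ-free minus conventional pregnant, over the tested members of each gene list with 6 or more (number in brackets), with all 5 conventional libraries (filled) and without CP2 (open). MHC class II moves from -1.68 to 0.12 and cell cycle from -0.93 to 0.07, whereas P450 families 1 to 3 move from 0.36 to 0.26.

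Markers of other cell types differed between single libraries or between the groups, with no call in any of these lists. Markers of macrophages, T and NK cells and neutrophils were highest in CP2. Kupffer cell and macrophage markers (18 of 18 tested) summed to 1782 CPM in CP2, to at most 635 CPM in the other conventional libraries and to 302 to 706 CPM in germ-free ones, and their median was -0.71 with CP2 and -0.16 without it. T and NK cell markers (15 of 20 tested) summed to 66.1 CPM in CP2, at most 11.7 CPM in the others and 6.10 to 15.1 CPM in germ-free livers, with medians of -0.96 and -0.12. Neutrophil markers (3 of 12 tested) summed to 31.6 CPM in CP2, at most 4.25 CPM in the others and 1.01 to 3.36 CPM in germ-free livers, with medians of -2.89 and -1.11. Cholangiocyte markers (10 of 12 tested) summed to 38.1 to 41.4 CPM in conventional and 36.7 to 210 CPM in germ-free livers, with 9 of 10 above 0 and a median of 1.66, or 1.56 without CP2. Krt19, a bile duct keratin, measured 1.24, 1.14, 1.0, 0.94 and 1.25 CPM and 3.242, 62.8, 2.6, 2.43 and 2.83 CPM. Muc1, an epithelial mucin, measured 0.539, 0.481, 0.445, 0.522 and 0 CPM and 0.306, 40.3, 0.232, 0.233 and 0.863 CPM. GP2 held nearly all of the high values in both, while the other 4 germ-free libraries were also above the conventional ones for Krt19 but not for Muc1 (adjusted p = 0.0543 and 0.162). The median of the cholangiocyte list is not given without GP2, so how far it rests on that library was not tested. Erythroid markers (10 of 15 tested) summed to 372 to 2255 CPM and 1763 to 3577 CPM, with 9 of 10 above 0 and a median of 0.90, or 1.04 without CP2. Adipose and muscle markers (6 of 11 tested) summed to 239 to 1412 CPM in conventional livers, lowest in CP2, and 1110 to 1976 CPM in germ-free ones, with 6 of 6 above 0 and a median of 1.44, or 1.21 without CP2. Endothelial markers (16 of 16 tested) summed to 339 to 514 CPM and 263 to 486 CPM, with 14 of 16 below 0 and a median of -0.30, or -0.26 without CP2. The 13 mitochondrially encoded genes were all above 0, with a median of 0.97, or 0.81 without CP2, and no call. Leaving them out of the library sizes gave 15 higher and 8 lower genes, all 21 among them. Of all 15928 genes, 7282 were above 0 and 8646 below 0. The part of these markers in the called differences was not tested.

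The same contrast in non-pregnant mice uses none of these libraries, and it called 25 genes, 14 higher (0.0879%) and 11 lower (0.0691%). There were 5 genes called in both, 5 of 21 and 5 of 25, and all had the same direction: 1810053B23Rik and Proser2 higher, Csad, Sult5a1 and Apoa4 lower. Their non-pregnant differences were 2.11, 0.67, -2.66, -2.28 and -1.39, against 2.61, 0.79, -2.87, -2.41 and -1.18 in pregnancy. For Csad the non-pregnant means were 98.7 CPM in conventional and 15.6 CPM in germ-free livers. The sign was shared by 20 of the 21 genes, and the exception, Sult4a1, was near 0 in non-pregnant livers, as was Pnpla5. The share of all genes with a common sign is not given here. The remaining 16 were called in pregnancy and not outside it, and the test of that difference was passed by none of 15928 genes with edgeR, with 903 (5.67%) under 0.05 before adjustment. The lowest adjusted p of that edgeR fit was 0.0717, for Cyp2b13 (pregnant 2.43, non-pregnant 0.26, difference 2.16, SE 0.37) and for Scd1 (pregnant -2.23, non-pregnant -0.17, difference -2.06, SE 0.36). Both passed under other settings. DESeq2 called the difference for Cyp2b13 (2.18, adjusted p = 4.21e-05), Scd1 (-2.05, adjusted p = 8.63e-05) and Sult4a1 (-6.14, adjusted p = 0.0216, with 6 of 22 libraries at 0). It also called Gm20708, Gm10925, Gm28661 and Rps23-ps1, which had 11 to 15 libraries at 0 and fitted differences from -30.0 to 24.04, which are no measure of size. With no filter on low counts, edgeR called Cyp2b13 (2.17, adjusted p = 0.0102) and Scd1 (-2.07, adjusted p = 0.0484), and with a replicate block it called Cyp2b13 (2.32, adjusted p = 0.00784). Leaving out 1 library gave a call for Cyp2b13 without CP2 (1.97, adjusted p = 0.0415), without CP3 (2.32, adjusted p = 0.0474) and without the germ-free non-pregnant library GN6 (2.01, adjusted p = 0.0366). Without CP1, Ildr2 and 2010003K11Rik were called instead. Cyp3a11, at 2853 ± 333 and 1749 ± 533 CPM (SD, n = 6) in conventional and germ-free non-pregnant livers, differed by -0.71 there (adjusted p = 0.639), and the 5 Cyp2c genes by 0.05 to 0.51.

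**Figure D4:**
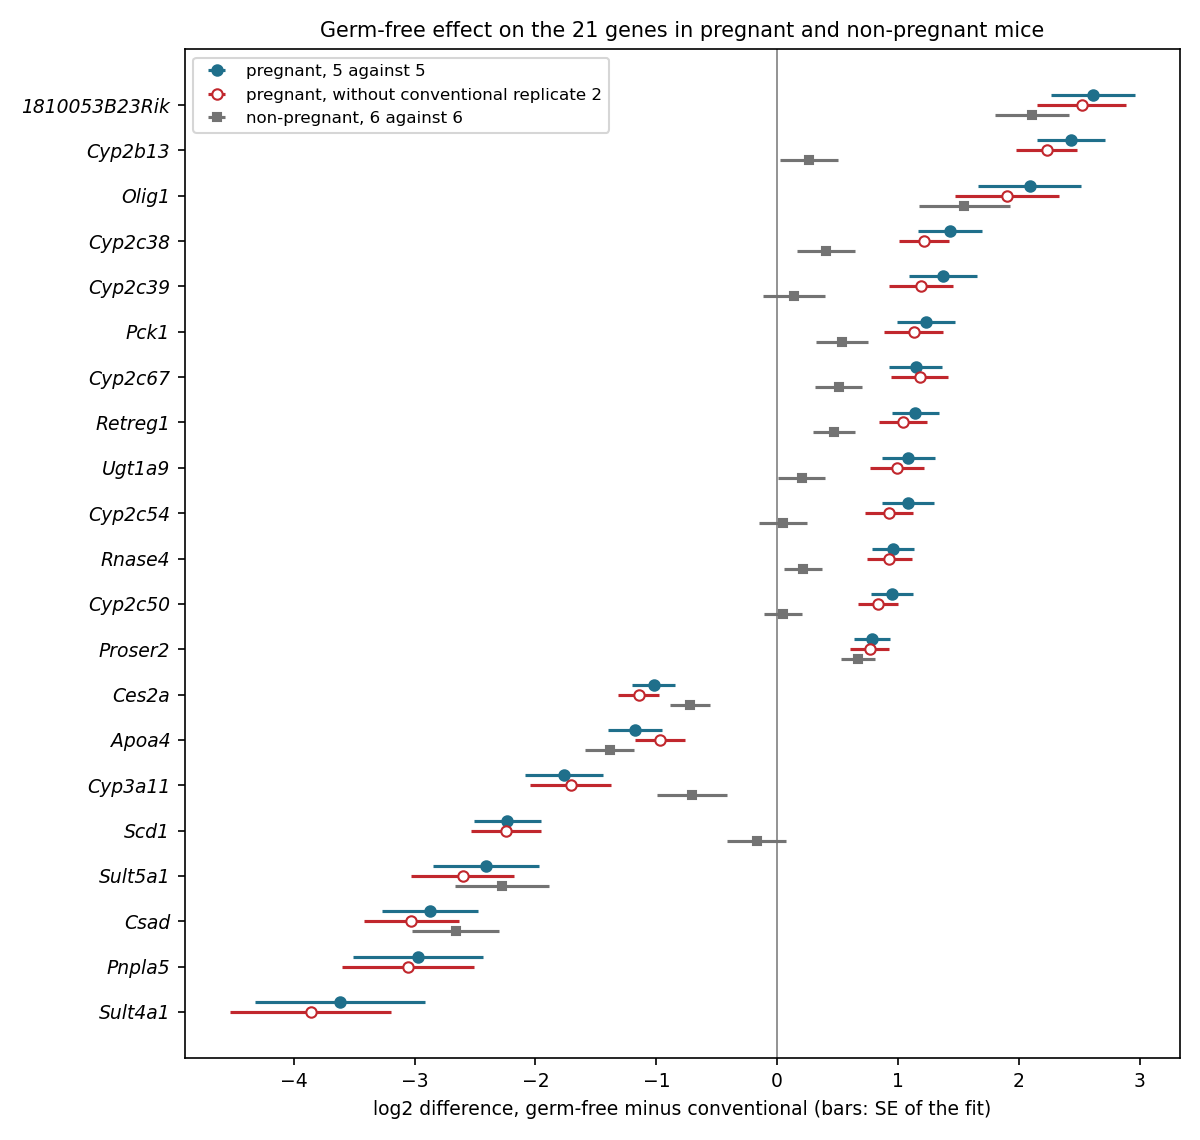
Log2 difference, germ-free minus conventional, for the 21 genes called in pregnancy: pregnant (filled circle), pregnant without CP2 (open circle) and non-pregnant (square, left out for Pnpla5 and Sult4a1, whose non-pregnant means were worth under 3 counts), with the standard error of the fit as a bar. Csad, Sult5a1 and 1810053B23Rik lie close together in all 3, while Cyp2b13 is at 2.43 in pregnant and 0.26 in non-pregnant mice and Scd1 at -2.23 and -0.17.

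Leaving out CP2 changed which genes passed. There were 7 genes called only with CP2, namely Apoa4, Proser2, Pck1, Ugt1a9, Cyp2c54, Olig1 and Cyp2c39, and their adjusted p without it lay between 0.0805 and 0.0944. There were 5 called only without CP2. Orm2 was higher, as given above, and 4 were lower. Aspg, an asparaginase, was at 154, 78.4, 95.4, 118 and 81.7 CPM and 70.5, 53.9, 33.3, 61.9 and 48.5 CPM (log2 -0.98 with and -1.07 without CP2, adjusted p = 0.0638 and 0.0447). Tiam2, an exchange factor for Rac, was at 7.01, 1.4, 7.62, 6.34 and 7.68 CPM and 2.14, 2.49, 4.28, 2.47 and 2.49 CPM (log2 -1.11 and -1.36, adjusted p = 0.247 and 0.0173). In Tiam2 CP2 lay below every germ-free library, while all other conventional libraries lay above them. Fam25c went from -1.65 to -1.81 (adjusted p = 0.068 and 0.0447) and the antisense transcript Gm32872 from -1.88 to -2.07 (adjusted p = 0.0813 and 0.0425). In a fit of the 9 pregnant libraries left after dropping CP2, 20 genes passed, 8 higher and 12 lower, against 5 with all 10. Only 8 of those 20 were among the 21 genes called in the main fit.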

How the data were processed

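Liver RNA from 22 female mice was sequenced, 1 library per mouse, and 10 libraries were of pregnant mice. Per the submitters' processing notes, reads were quantified with Salmon 0.11.3 and GRCm38.p6 and tested with edgeR 3.24.3; the annotation release is not given in the sources used here. The authors deposited 1 table of estimated counts, the expected count of reads for each gene without scaling between libraries, and 14.7% to 26.3% of its values were not whole. These were rounded, which moved 0.00829% of counts. Symbols came from GENCODE M21 and matched 99.9% of identifiers.

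Genes were kept by edgeR's filterByExpr (minimum count 10, minimum total 15). All 22 libraries were fitted with 1 term per group (edgeR 4.0.16, R 4.3.3, TMM scaling, quasi-likelihood test), so that the groups shared an estimate of the spread, and p-values were adjusted by Benjamini-Hochberg over all genes. CPM used TMM-scaled library sizes, and intervals are 95% intervals of the fit. DESeq2 1.42.0 and other settings were alternatives. The test was checked on simulated data with 200 genes changed in germ-free pregnant mice. It recovered 81% of those changed by a log2 of 1 and 98% of those changed by 2. Of 192 calls, 13 were false (6.77%). No simulated library was made to stand apart, so the effect of a library such as CP2 was not checked. No 2 libraries of a group agreed within sampling noise.

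The comparison and the 52 gene lists were chosen with earlier results of these data known. Named genes were the called genes with official symbols and at least 5 CPM without overlap (the 10 largest and 5 most abundant per direction), the 2 largest called members per list, and fixed key genes. Genes outside the rule, among them 1810053B23Rik, Pnpla5, Olig1, those called only without CP2 and others given as pathway examples, were chosen after their values were seen. Shared sequence was counted as 31-base words of GENCODE transcripts.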

Additional observations from a re-analysis of the deposited data

Results flagged for a closer look

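In each group of 5, the highest or lowest library was compared with its nearest neighbour for 69 named genes, and 26 of 138 gene and group pairs had a library far from the others (a gap above 0.71 of the range). Chance gives about 1 in 20 for groups chosen without regard to their values, but many of these genes were chosen after their values were seen, some because CP2 or GP2 stood apart in them, so the count is a description and not a test. CP2 accounted for 12 high and 3 low values.

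CP2 was high for Saa2 (2156 CPM), Saa1 (2049 CPM), Lcn2 (885 CPM), Orm2 (506 CPM), Hp (9738 CPM), Cxcl10 (345 CPM) and H2-Ab1 (400.4 CPM). It was also high for Mki67 (63.4 CPM), for the mitotic genes Cenpa (21.1 CPM) and Aurka (16.5 CPM), and for the stress hormone Fgf21 (25.9 CPM, others at most 1.00 CPM) and Igfbp1 (256 CPM). It was low for Cyp7a1 (17.8 CPM), Ces2a (120.3 CPM) and Tiam2 (1.4 CPM).

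Other conventional libraries stood apart in 2 genes, CP1 high for Cyp4a14 (556 CPM) and CP5 at 0 CPM for Muc1. GP2 was high for Krt19 (62.8 CPM), Muc1 (40.3 CPM), the iron hormone Hamp (150.4 CPM) and Ces2a (126 CPM). GP1 was high for Saa2 (40.9 CPM) and Ang (241 CPM) and low for Retreg1 (92.1 CPM). GP3 was high for Cyp7a1 (248 CPM) and Tiam2 (4.28 CPM). What set these libraries apart was not tested.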

How the results depend on the processing

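All 21 called genes kept their direction in each of 9 alternatives and 10 fits that left out a pregnant library. Cyp2b13, Scd1 and 1810053B23Rik passed in every one of them. Against 13 higher and 8 lower genes, DESeq2 called 63 and 44, no filter on low counts 20 and 15, the 10 pregnant libraries alone 2 and 3, and the 9 left without CP2, an alternative chosen after seeing the data, 8 and 12. The DESeq2 counts include Gm20708, Gm16277, Gm10925 and Gm28661. Their fitted log2 differences of 23.28, 21.17, -32.54 and -32.21 are no measure of size. Several named genes that missed the edgeR threshold were among the DESeq2 calls, while others such as Pnpla3 and Mt1 were not. Those called included Nox4 (adjusted p = 0.000603), Cyp2d26 (0.00437), Oat (0.00566), Igha (0.0152), Cd36 (0.0177) and Ang (0.0498). Leaving out 1 library gave 2 to 20 higher and 2 to 11 lower genes. In total, 7 genes passed without CP4, 6 without CP5, 12 without GP3, 5 without GP4 and 6 without GP5, against 19 without CP2. Orm2 ranged from -0.35 without GP1 to 2.09 without CP2, where its sign turned, as it did in the pregnant libraries alone without CP2 (2.09), where Lcn2 also turned (2.18).

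In non-pregnant mice, against 14 and 11, DESeq2 called 55 higher and 59 lower; 18 were lower without a filter and 18 in non-pregnant libraries alone. Leaving out 1 library gave 5 to 16 higher and 5 to 14 lower. For the difference of effects, DESeq2 called 2 higher and 5 lower and no filter 1 and 1, and leaving out 1 library gave 0 to 1 in each direction.

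The replicate numbers did not pair the libraries: same-numbered pregnant pairs correlated between -0.119 and 0.0435 in their deviations, and 0 of 10 libraries correlated best with its own number. With a replicate block, 12 higher and 8 lower genes passed in pregnancy, 3 and 4 in the pregnant libraries alone, 19 were lower in non-pregnant mice, and 1 gene passed as higher for the difference.

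The cause of these changes was not tested. With 3 counts worth 0.105 to 0.187 CPM in the pregnant libraries, genes near 1 CPM such as Olig1 and Sult4a1 rest on few reads.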

Other observations

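Iron, antibody and stress genes outside the groups above gave no call. Hamp, the hormone that limits iron uptake, was at 154, 179, 207, 114 and 92.0 CPM in CP1 to CP5 and 35.7, 150.4, 6.0, 1.54 and 4.74 CPM in GP1 to GP5. Germ-free libraries other than GP2 were below all conventional ones, and the test was not passed (log2 -1.91, 95% interval -3.54 to -0.29, adjusted p = 0.394). Without CP2 the log2 difference of Hamp was -1.84 (adjusted p = 0.594). Non-pregnant means of Hamp were 1287 and 641 CPM. Jchain, which joins the chains of secreted antibodies, was at 0.418 to 1.27 and 0.192 to 1.28 CPM (log2 0.18, adjusted p = 0.927). Igha, the constant chain of IgA, was at 0.332, 2.23, 2.17, 0.522 and 0.209 CPM and 0.183, 0, 0.093, 0 and 0 CPM. The germ-free libraries were below every conventional one for Igha (adjusted p = 0.169), at levels where 3 counts are worth up to 0.187 CPM.

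Mt1, a metallothionein that binds zinc, did not overlap between groups, at 248, 791, 1769, 985 and 582 CPM and 4333, 3178, 2119, 1848 and 2108 CPM, and missed the threshold (log2 1.63, adjusted p = 0.269). Nox4, an oxidase that makes hydrogen peroxide, was at 2.9, 0.919, 5.62, 5.5 and 3.61 CPM and 9.18, 13.6, 13.2, 17.0 and 9.78 CPM, also without overlap (log2 1.76, adjusted p = 0.0543). Slc4a1, the anion exchanger of red cells, was at 0.58, 3.63, 0.667, 0.836 and 1.88 CPM and 4.83, 2.62, 8.46, 3.83 and 3.31 CPM, with CP2 the highest conventional library (95% interval 0.44 to 2.76, adjusted p = 0.327). Mup17, a second major urinary protein gene, was at 5.3 to 295 and 4.42 to 72.1 CPM in pregnancy (log2 -2.23, adjusted p = 0.341), and its non-pregnant difference of -5.96 was called (adjusted p = 0.0018). Krt23, a keratin, was at means of 0.445 and 0.991 CPM in pregnant livers (log2 1.16, adjusted p = 0.335) and was called higher in germ-free non-pregnant ones, at 1.76 and 10.3 CPM (log2 2.54, adjusted p = 0.0012).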
